A study of Homo sapiens with 38 samples.

Results

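Homeobox genes encode transcription factors that bind DNA through a homeodomain, and most of those outside the HOX clusters set the identity of one tissue or region of the embryo. The 56 genes described here were taken from a list of symbols and group by name prefix into 21 subfamilies, of which NKX, LHX, DLX and IRX are the largest. All 56 were found among the 20136 protein-coding genes annotated on chromosomes 1 to 22, X and Y. H3K27me3 and H3K27ac were profiled by CUT&Tag, in which an antibody tethers the Tn5 transposase to chromatin carrying the mark, in K562, an established human leukemia line with erythroid features. All libraries are of this 1 line, and the labels state no engineered genetic change. The 8 benchmark libraries comprised 2 of H3K27me3, made with CST-9733 at 1:100, and 6 of H3K27ac, made with ab177178 at 1:100, ab4729 at 1:100 and Diagenode at 1:50, with 2 replicates each, 15 PCR cycles, SDS-based extraction and no histone deacetylase inhibitor. The other 30 comprised 6 first libraries, 4 with trichostatin A (TSA), an inhibitor of histone deacetylases, and 20 from a comparison of PCR cycles and extraction methods.

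H3K27me3 is written by the Polycomb repressive complex PRC2 and marks developmental genes that are kept silent, often in broad domains that reach over a whole gene. H3K27ac is written by acetyltransferases such as p300 and CBP and marks active promoters and enhancers. Both marks sit on lysine 27 of histone H3, so that a given histone tail carries only one of them. In blood cells most tissue-restricted homeobox genes are silent, while HHEX, MEIS1 and PBX3 are known for roles in hematopoiesis or leukemia.

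Each gene was scored by the share of its start windows, 1.5 kb either side of every annotated transcript start, that lay under the peaks of a library. A gene was called for H3K27me3 when a peak overlapped a start window by at least 1 bp in 2 of 2 libraries, and for H3K27ac when one did in at least 4 of 6. The H3K27me3 lists held 65638 to 77412 MACS2 peaks over 193 to 217 Mb and 83643 to 85248 SEACR peaks over 200 to 229 Mb. The H3K27ac lists held 21317 to 34897 MACS2 peaks over 20.2 to 39.9 Mb and 10930 to 15614 SEACR peaks over 49.4 to 77.6 Mb. The lists carry no read depth, so no counting interval is given for single genes. The study describes the sequenced replicates of the benchmark antibodies as biological. The labels do not state whether the replicates came from separate cultures. How much of the spread between replicates was technical was not tested. Of 12 K562 and erythroid markers, 11 were called for H3K27ac by both callers, among them GATA1, TAL1 and KLF1. Among the markers of other blood cells, SPI1 was called for H3K27ac by both callers and PTPRC by MACS2 only. The erythroid marker not called for H3K27ac was BCL11A, which carried H3K27me3. RUNX1, of the same list, was called for both marks by both callers. CD3E, CD4, MS4A1, CD14, ITGAM and MPO had no H3K27ac peak at a start in any benchmark list.

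The 56 homeobox genes carried H3K27me3 far more often than genes at large and H3K27ac far less often. They were chosen with earlier results of these data known, so the size of this contrast describes this list only. Of 78 other homeobox genes, 61.5% were called for H3K27me3 and 26.9% for H3K27ac by MACS2. By MACS2, 40 of 56 were called for H3K27me3, against a background of 26.3% of all protein-coding genes, and 10 of 56 for H3K27ac, against 52.2%. By SEACR, 42 were called for H3K27me3 (background 25.9%) and 8 for H3K27ac (background 44.3%). Only LHX3 and LHX6 were called for both marks by MACS2 (background 4.21%), and only LHX3 by SEACR (background 2.76%). No peak of either mark was found in any of the 8 libraries for 4 genes by MACS2 (background 18.6%) and for 4 by SEACR (background 21.4%), and NKX6-2, PITX3 and ISL1 had none by either caller (background 17.2%). The start windows of the homeobox genes had a median length of 4489.5 bases, against 6429 bases over all genes, and were thus the shorter targets. A gene placed in the same class by one caller was usually placed there by the other, with 49 of 56 classed alike. With MACS2 peaks of −log10 q of at least 10 only, 19 of the 40 genes kept the H3K27me3 call and 21 lost it, among them NKX2-2, PBX3, CDX2 and OTX2, against 15.1% of all genes called that kept it. All 10 H3K27ac calls were kept, against 95.6% over all genes called. The −log10 q of broad peaks is not on the scale of narrow ones. H3K27ac was present in 6 of 6 libraries at 6 genes by MACS2 (background 43.9%) and 6 by SEACR (background 36.7%), and in at least 1 at 12 by MACS2 (background 58.6%) and 10 by SEACR (background 54.1%). In single libraries, H3K27ac was found at 7 to 11 genes by MACS2 and 7 to 9 by SEACR, for example at 11 in ab4729 replicate 2 by MACS2 (background 53.9%).

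**Figure D1:**
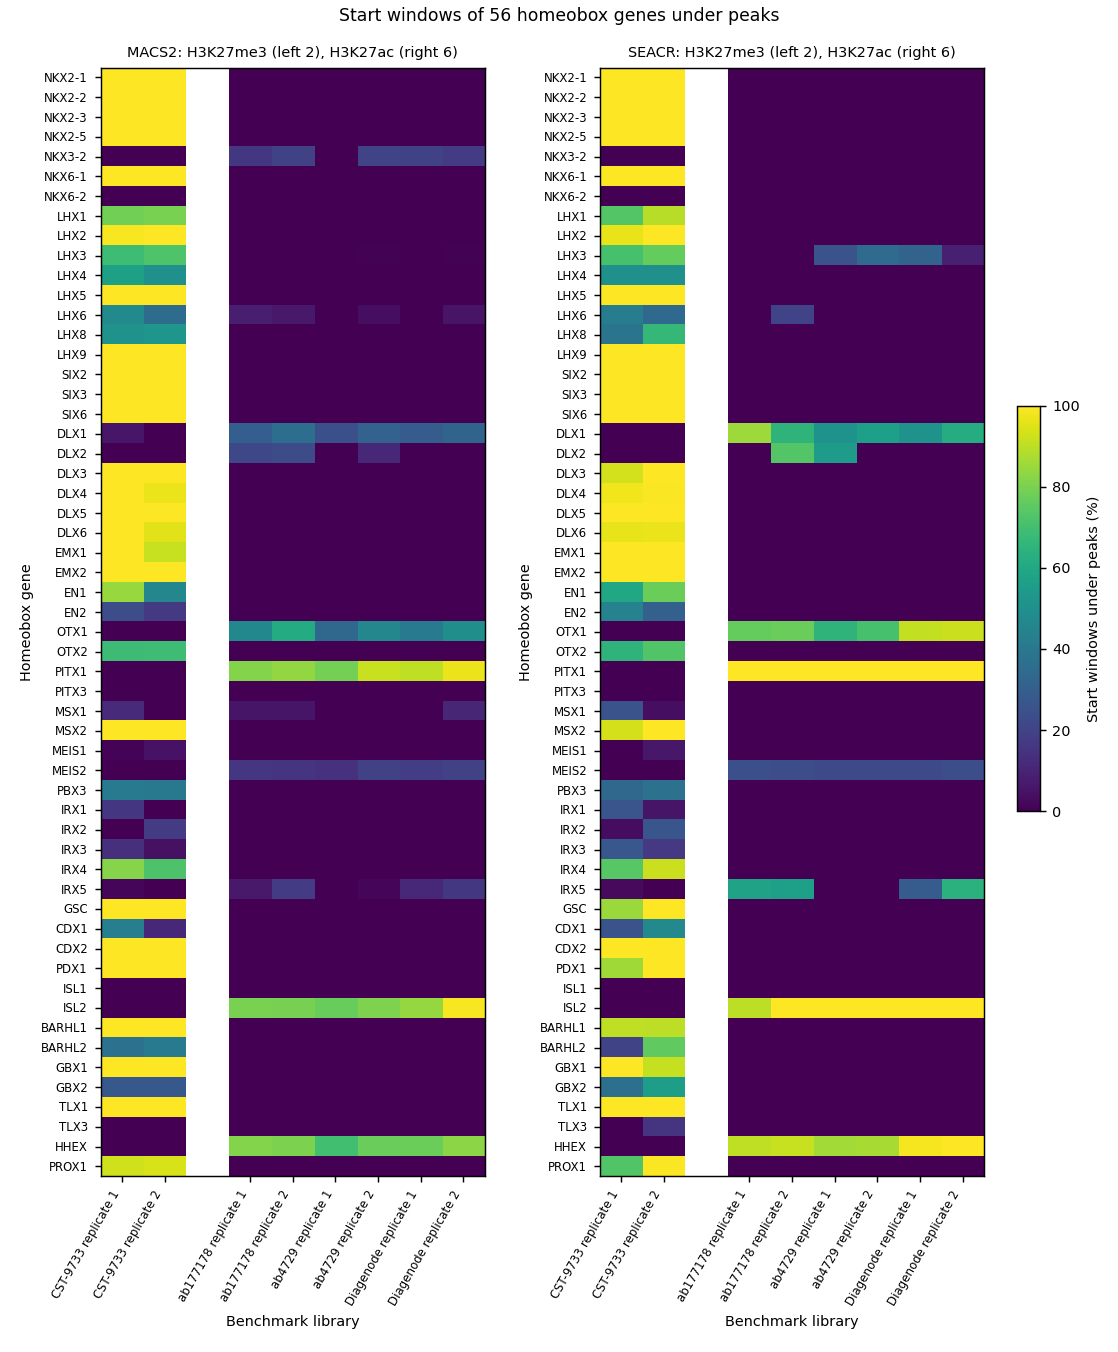
Share of the start windows under peaks (percent, color) for each of the 56 homeobox genes (rows, by subfamily) in the 8 benchmark libraries (columns, H3K27me3 left and H3K27ac right), for MACS2 and SEACR. Most rows are high in both H3K27me3 columns and 0 in all H3K27ac columns, and PITX1, ISL2, HHEX, OTX1, DLX1 and MEIS2 are the rows marked in all 6 H3K27ac libraries.

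By MACS2, 38 genes were called for H3K27me3 and not H3K27ac (background 22.1%), and by SEACR 41 (background 23.1%). The start windows lay entirely under H3K27me3 peaks in both replicates in 20 genes by MACS2 (background 3.82%) and in 15 by SEACR (background 2.81%). The NKX genes of endoderm, heart and neural tube were among these. NKX2-1, the regulator of thyroid and lung development, NKX2-5, the cardiac factor, NKX2-2 and NKX6-1, which pattern the ventral neural tube and the endocrine pancreas, and NKX2-3, a factor of gut and spleen, each had 100 and 100% of their windows under H3K27me3 in replicates 1 and 2, against 0% in all 6 H3K27ac libraries, by MACS2 and SEACR alike. A start of SFTA3 lies close enough to NKX2-1 to share its peaks. The genes of the sine oculis type behaved in the same way, with SIX3 and SIX6, which act in the forebrain and eye, and SIX2, which maintains kidney progenitors, at 100 and 100% of the windows under H3K27me3 by both callers and at 0% under H3K27ac.

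Other genes were covered to a similar extent. CDX2, the intestinal master regulator, and PDX1, the pancreatic one, had 100 and 100% of their windows under H3K27me3 by MACS2 and 0% under H3K27ac. So did DLX3 and DLX5, which act in skin, teeth, limbs and the face, while DLX4 had 100 and 97.2% and DLX6 100 and 95.4%. EMX1 and EMX2, which pattern the cerebral cortex, had 100 and 91.6% and 100 and 100%. None of these genes had an H3K27ac peak at a start in any of the 6 libraries, so that the groups did not overlap. The LHX genes of the LIM-homeodomain type, which specify neurons and the pituitary, were all called for H3K27me3. Coverage of their windows ran from 100 and 100% at LHX5 and LHX9 to 47.3 and 35.4% at LHX6. It was 56.6 and 50.3% at LHX4 and 51.0 and 52.5% at LHX8.

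MSX2, GSC, BARHL1, GBX1 and TLX1 were also at 100 and 100% by MACS2, and LHX1, a kidney and head organizer factor, was at 78.6 and 79.7%. Coverage was partial or differed between replicates at a smaller set. GBX2, which acts at the boundary of midbrain and hindbrain, had 27.6 and 27.5% of its windows under H3K27me3 and BARHL2, a retinal and neuronal factor, 37.2 and 41.5%. EN1, a factor of the midbrain and hindbrain, had 84.4 and 46.2% of its windows under H3K27me3 in replicates 1 and 2, and the intestinal gene CDX1 had 42.8 and 11.0%. In EN2 (23.5 and 17.1%) and IRX3 (13.9 and 4.7%) the strongest peak did not reach a start, lying at least 795 bp from it at EN2 and at least 1067 bp at IRX3. PBX3, which encodes a partner of HOX proteins, had 41.3 and 40.4% of its windows under H3K27me3 and none under H3K27ac. In MEIS1, another HOX cofactor and a known leukemia gene, only 1.0 and 4.9% of the windows were covered, by H3K27me3 peaks of 244 and 1165 bp in replicates 1 and 2, and SEACR called a peak in replicate 2 only.

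**Figure D2:**
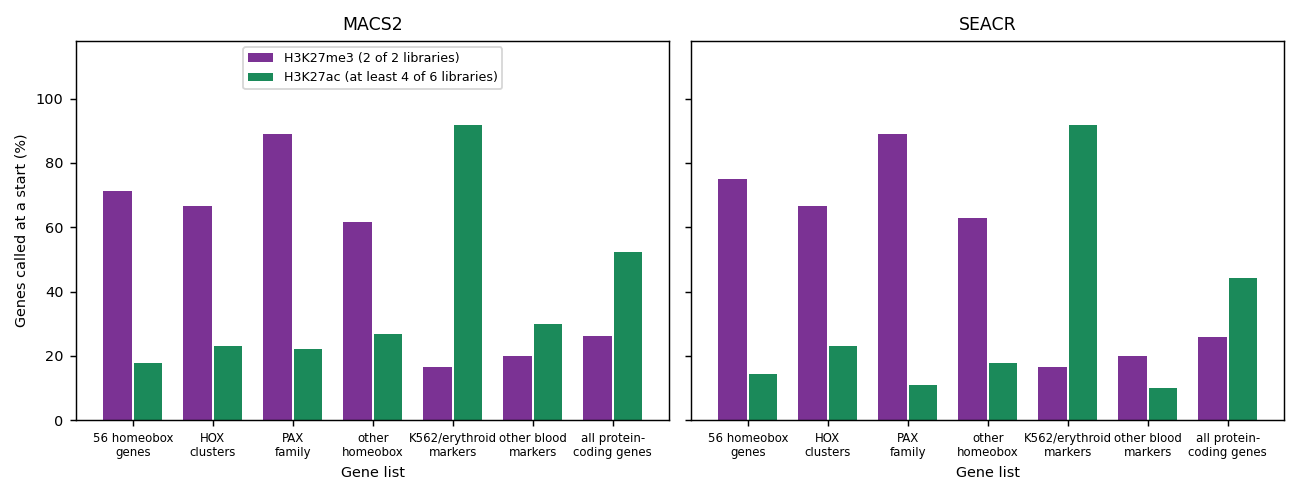
Share of genes called at a start (percent, bars from 0) for H3K27me3 (left bar of each pair) and H3K27ac (right bar), by gene list and for all protein-coding genes, with MACS2 left and SEACR right. The 56 homeobox genes, the HOX clusters, the PAX family and the other homeobox genes show the higher bar for H3K27me3, and the K562 and erythroid markers for H3K27ac.

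H3K27me3 reached beyond the starts. The median homeobox gene had 68.1% of its length, from first to last annotated base, under H3K27me3 peaks by MACS2 and 67.7% by SEACR (mean of 2 libraries), against a median of 0% over all genes. At least 50% of the gene was covered in 32 of 56 genes by MACS2 (background 10.5%) and in 32 by SEACR (background 10.8%). By MACS2, 13 genes lay entirely under H3K27me3 in both replicates (background 2.42%), namely NKX2-1, NKX2-2, NKX2-3, NKX2-5, LHX5, SIX2, SIX3, DLX3, DLX5, GSC, CDX2, PDX1 and TLX1, and 8 did by SEACR (background 1.95%). Homeobox genes are short, with a median length of 6343.5 bp against 27217 bp over all genes. Among genes of 4345 to 11293 bp, the middle range of the homeobox genes, 21 of 28 homeobox genes (75%) had at least 50% of their length under H3K27me3, against 13.7% of 3184 other genes by MACS2 and 14.1% by SEACR. In that range 8 of 28 homeobox genes were entirely covered by MACS2 and 4 by SEACR, against 4.18 and 2.92% of the other genes.

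Coverage of the long members differed. By MACS2, MEIS2, of 212096 bp, had 0 and 0% of its length under H3K27me3 in replicates 1 and 2. MEIS1, of 140418 bp, had 0.17 and 0.83%, and LHX2, of 31632 bp, had 94.8 and 93.2%. PROX1, which directs lymphatic and lens development and spans 58330 bp, had 33.0 and 24.8% of its length under H3K27me3 by MACS2 in replicates 1 and 2, and PBX3, of 220033 bp, had 5.8 and 4.6%. At PROX1, 92.9 and 93.9% of the start windows were covered, but of the 19228 and 14477 bp of the gene under H3K27me3, 13515 and 8688 bp lay outside them. At PBX3, 9338 of 12861 bp and 6675 of 10090 bp lay outside the start windows. In some genes coverage was higher over the gene than at the starts. At EN2, 88.1 and 82.9% of the gene but 23.5 and 17.1% of the start windows were covered. The shares were 93.3 and 77.9% against 37.2 and 41.5% at BARHL2, and 73.8 and 56.8% against 42.8 and 11.0% at CDX1. At IRX1, 65.8 and 41.8% of the gene was covered, and a peak reached the start windows in replicate 1 only.

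**Figure D3:**
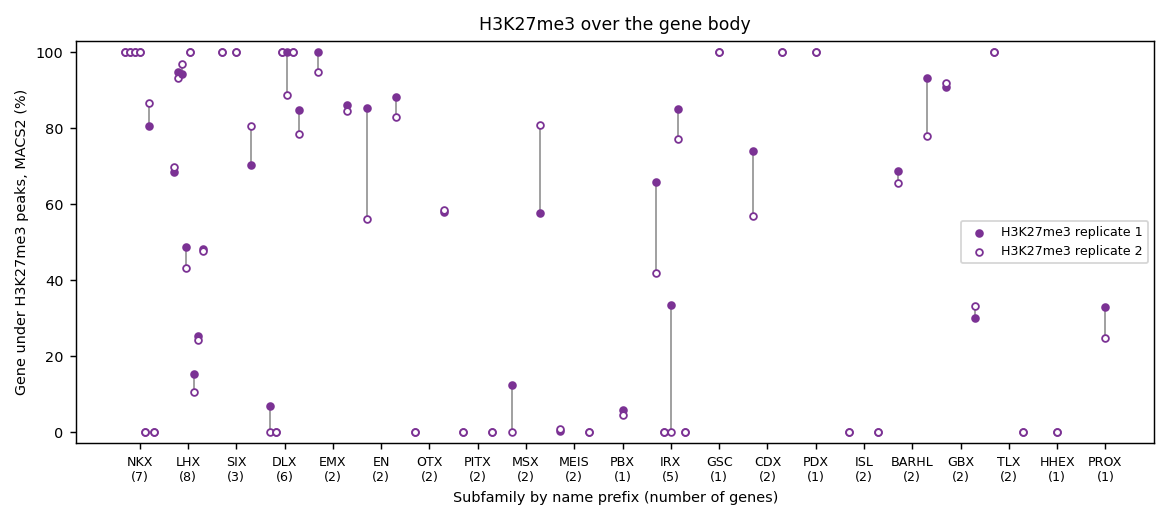
Share of each gene under H3K27me3 MACS2 peaks (percent) in replicate 1 (filled) and replicate 2 (open), joined by a line for each gene, by subfamily. SIX2, SIX3, SIX6 and the EMX, EN, CDX and BARHL genes all lie above 50% in both replicates, PITX and ISL genes lie at 0%, and NKX, DLX, MSX and IRX genes are split.

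The H3K27me3 peaks at these genes were also strong for their lists, and some were wide. For each gene, the fold over background that MACS2 gives to its strongest peak at a start was ranked within the list. In the 40 genes called by MACS2 the median percentile was 98.0, against 87.6 over all 5296 genes called, and 32 of the 40 were at or above percentile 90, against 44.7% of all genes called. LHX4 (percentiles 99.8 to 99.9), LHX5 (99.9 and 99.9) and EMX1 (99.8 to 99.9) ranked highest. The widest peaks lay at LHX3, a pituitary and motor neuron factor (40009 and 53732 bp in replicates 1 and 2), LHX2, which acts in forebrain and eye (48994 and 46913 bp), SIX3 (36401 and 41068 bp), NKX2-5 (16108 and 40399 bp) and IRX4, a ventricular factor of the heart (34033 and 21418 bp). At SIX3 and LHX2 the replicates gave similar widths, whereas at NKX2-5 replicate 1 split the domain into shorter peaks. In contrast, the widest peaks were 817 and 1116 bp at GBX2 and 244 and 1165 bp at MEIS1. Widths were not compared with those at other called genes.

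When peaks separated by no more than 1000 bp were joined, the stretch over a homeobox start had a median length of 15121 bp in replicate 1 (44 genes) and 14951 bp in replicate 2 (41 genes). The longest, at DLX4, measured 85604 bp in replicate 1 (chr17:47974431-48060034, hg19) and ranked 25 of 70627 by length, but 17392 bp in replicate 2. At SIX3 the joined stretch was 41388 bp in replicate 1 and 41068 bp in replicate 2, and at NKX2-5 34297 and 40399 bp, so that joining brought the replicates of NKX2-5 closer. Among the 56 genes, 5 neighbouring pairs lie within 100 kb of each other (SIX2 and SIX3, DLX1 and DLX2, DLX3 and DLX4, DLX5 and DLX6, CDX2 and PDX1). No stretch covered starts of both genes of a pair, so that the calls of neighbours did not rest on shared peaks. DLX1 and DLX2 differ from the other pairs in that neither was called for H3K27me3.

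H3K27ac peaks lay far from most of these genes. The median distance from the nearest start to an H3K27ac peak was 81.3 kb by MACS2 and 129 kb by SEACR for the homeobox genes, against 0.16 and 9.08 kb for all genes (median over 6 libraries). No H3K27ac peak was found within 50 kb of a start in 33 of 56 genes by MACS2 (background 26.6%) and in 43 by SEACR (background 34.3%). For the 38 genes called for H3K27me3 alone by MACS2 these counts were 28 and 35. Having no H3K27ac call at a start was part of how these 38 were chosen. Shares over all genes of that class were not computed, so the 2 counts stand without a background.

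Against this, a small group of homeobox genes carried H3K27ac and no H3K27me3. PITX1 (chr5:134363424-134370503), known for hindlimb and pituitary development, had 0 and 0% of its start windows under H3K27me3 by MACS2 and 79.0 to 97.3% under H3K27ac (median 87.1%, mean 87.2 ± 6.9%, SD, n = 6). Its strongest H3K27ac peak ranked between percentiles 94.2 and 97.3 of the lists and was 2922 to 5645 bp wide. HHEX (chr10:94449712-94455404), which acts in blood progenitors, endothelium and liver, had 0 and 0% under H3K27me3 and 69.9 to 82.8% under H3K27ac (median 78.8%, mean 78.2 ± 4.6%), with the nearest H3K27me3 peak 307740 bp away. ISL2 (chr15:76629114-76634816), a motor neuron factor, had 0 and 0% under H3K27me3 and 76.8 to 99.2% under H3K27ac (median 80.2%, mean 83.3 ± 8.1%). In all 3 genes the 6 H3K27ac libraries lay far above both H3K27me3 libraries, and SEACR covered 86.1 to 100% of the windows with H3K27ac.

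OTX1, MEIS2 and DLX1 were acetylated over a smaller part of their windows. OTX1 (chr2:63277192-63284971), which acts in the cerebral cortex, had 0 and 0% of its windows under H3K27me3 and 33.4 to 61.6% under H3K27ac (median 46.5%). MEIS2 (chr15:37181405-37393500), a HOX cofactor with 36 annotated starts, had 0 and 0% under H3K27me3 and 14.1 to 19.8% under H3K27ac (median 17.0%), from a peak that ranked between percentiles 87.4 and 96.4 and was 2570 to 6233 bp wide. The low share of its windows stood beside a strong peak and many annotated starts. DLX1 (chr2:172949468-172954405), which acts in forebrain interneurons, had 6.0 and 0% under H3K27me3 and 24.5 to 36.3% under H3K27ac (median 30.5%). The DLX1 peak of H3K27me3 replicate 1 was 335 bp long, and its 335 bp lay within the H3K27ac peaks. SEACR called all of these genes for H3K27ac in 6 of 6 libraries and none of them for H3K27me3.

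NKX3-2, a factor of cartilage and the spleen, and IRX5, an Iroquois factor of heart and retina, were the weakest of the acetylated genes. NKX3-2 had 0 and 0% under H3K27me3 and 0 to 20.3% under H3K27ac by MACS2 (median 18.2%), with no peak in ab4729 replicate 1, and SEACR found no peak of either mark. IRX5 had 1.6 and 0% under H3K27me3 and 0 to 17.3% under H3K27ac by MACS2 (median 9.22%), with no H3K27ac peak in ab4729 replicate 1. Its strongest MACS2 H3K27ac peaks lay no closer than 1169 bp to a start, near the edge of the window. A weaker peak reached a start in ab177178 replicate 2 and in both Diagenode libraries. By SEACR, 0 to 63.9% of the IRX5 windows were under H3K27ac (median 42.7%), with a peak in 4 of 6 libraries. With windows of 500 bp either side IRX5 was lost by MACS2 and kept by SEACR. For NKX3-2 and IRX5 the libraries of the marks overlapped.

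Some subfamilies were uniform and others were split between the marks. Of 16 subfamilies with several members, 7 had every member called for H3K27me3 by MACS2 (LHX, EMX, EN, CDX, BARHL, GBX and the subfamily of SIX2, SIX3 and SIX6). In 5 at least 1 member was called for H3K27me3 alone and at least 1 for H3K27ac alone (NKX, DLX, OTX, MEIS and IRX), and in PITX and ISL no member was called for H3K27me3. By SEACR, 8 subfamilies had every member called for H3K27me3, MSX being added, and 3 held both kinds (DLX, OTX and IRX), since NKX3-2 was not called for H3K27ac and MEIS1 not for H3K27me3. OTX2, which forms the forebrain and eye, had 68.4 and 69.1% of its windows under H3K27me3 and 0% under H3K27ac, the reverse of OTX1. ISL1 specifies motor neurons and heart progenitors, and PITX3 is a lens and midbrain dopamine neuron factor. Neither had a peak of either mark by either caller, whereas ISL2 and PITX1 carried H3K27ac at a start in 6 of 6 libraries. Among the DLX genes, DLX3, DLX4, DLX5 and DLX6 carried H3K27me3, DLX1 carried H3K27ac, and DLX2, which is transcribed towards DLX1 from 9760 bp away, had an H3K27ac peak in 3 of 6 libraries by MACS2 and 2 of 6 by SEACR.

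The promoters of these paralogs and of HHEX are given as the 250 bases before a RefSeq start (GRCh38.p14 table). Each was found by exact match at 1 place in GRCh37, the assembly of the peak files. Where a gene had several such promoters, the one with the most bases under benchmark MACS2 peaks was taken. This was so for OTX2 only. Its other promoter (chr14:57272386-57272635) held 4 CG dinucleotides and had 54 and 108 bases under H3K27me3 in replicates 1 and 2. CG dinucleotides are in capitals. OTX1 lies at chr2:63277715-63277964 on the plus strand and OTX2 at chr14:57277198-57277447 on the minus strand, ISL2 at chr15:76628864-76629113 and ISL1 at chr5:50679032-50679281 on the plus strand, PITX1 at chr5:134369919-134370168 and PITX3 at chr10:104001270-104001519 on the minus strand, and HHEX at chr10:94449462-94449711 on the plus strand.
OTX1: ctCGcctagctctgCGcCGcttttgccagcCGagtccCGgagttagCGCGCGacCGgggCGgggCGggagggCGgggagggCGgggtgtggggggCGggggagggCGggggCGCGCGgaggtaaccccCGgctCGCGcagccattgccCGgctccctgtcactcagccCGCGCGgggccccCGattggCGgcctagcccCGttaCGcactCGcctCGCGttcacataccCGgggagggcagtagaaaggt
OTX2: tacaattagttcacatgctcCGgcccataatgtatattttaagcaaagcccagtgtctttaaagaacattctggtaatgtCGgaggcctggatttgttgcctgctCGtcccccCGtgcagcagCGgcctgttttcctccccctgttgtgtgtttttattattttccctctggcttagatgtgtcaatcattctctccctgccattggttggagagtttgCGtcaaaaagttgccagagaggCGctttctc
ISL2: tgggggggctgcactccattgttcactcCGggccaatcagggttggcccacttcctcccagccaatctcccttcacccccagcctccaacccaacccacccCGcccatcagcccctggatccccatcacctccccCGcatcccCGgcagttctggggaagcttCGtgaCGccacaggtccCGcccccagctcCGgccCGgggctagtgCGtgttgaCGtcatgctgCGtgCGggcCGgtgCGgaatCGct
ISL1: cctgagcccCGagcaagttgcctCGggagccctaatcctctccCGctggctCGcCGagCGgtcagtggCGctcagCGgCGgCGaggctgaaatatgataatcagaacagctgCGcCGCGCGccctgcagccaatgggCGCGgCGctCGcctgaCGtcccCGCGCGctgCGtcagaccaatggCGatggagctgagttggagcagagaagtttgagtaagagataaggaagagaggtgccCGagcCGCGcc
PITX1: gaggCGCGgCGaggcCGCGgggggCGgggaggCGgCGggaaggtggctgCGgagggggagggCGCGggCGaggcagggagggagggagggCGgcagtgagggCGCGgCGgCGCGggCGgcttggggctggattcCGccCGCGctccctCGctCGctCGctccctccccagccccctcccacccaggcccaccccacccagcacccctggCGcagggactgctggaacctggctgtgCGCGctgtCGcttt
PITX3: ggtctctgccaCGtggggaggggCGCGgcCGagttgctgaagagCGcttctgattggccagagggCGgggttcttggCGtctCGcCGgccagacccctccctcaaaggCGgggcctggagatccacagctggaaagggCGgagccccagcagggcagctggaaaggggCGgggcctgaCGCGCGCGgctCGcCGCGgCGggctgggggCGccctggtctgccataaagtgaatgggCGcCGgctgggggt
HHEX: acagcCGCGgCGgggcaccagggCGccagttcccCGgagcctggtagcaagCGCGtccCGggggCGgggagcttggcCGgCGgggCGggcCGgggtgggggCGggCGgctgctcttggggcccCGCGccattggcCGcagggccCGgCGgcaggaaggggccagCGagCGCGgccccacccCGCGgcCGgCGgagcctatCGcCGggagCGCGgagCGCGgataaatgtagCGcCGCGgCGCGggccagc

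The promoters of OTX1, ISL2, PITX1 and HHEX lay under H3K27ac peaks in 6 of 6 libraries by MACS2 and under no H3K27me3 peak, that of OTX2 under H3K27me3 in 2 of 2 and no H3K27ac peak, and those of ISL1 and PITX3 under neither. The 250 bases held 33 CG dinucleotides at OTX1 and 7 at OTX2, 16 at ISL2 and 27 at ISL1, 29 at PITX1 and 23 at PITX3, and 38 at HHEX. The median over all 35116 promoters of the table was 11 and that over the 53 promoters of the 41 homeobox genes in it was 23. The count was thus higher at the acetylated paralog in the OTX and PITX pairs and lower in the ISL pair. The GC box GGGCGG was found on either strand in OTX1, ISL2, PITX1, PITX3 and HHEX and in 42.6% of all promoters, and the GATA motif AGATAA in ISL1 alone of the 7 and in 9.17% of all promoters. The homeodomain core TAATTA was in none of the 7 and in 4.35% of all promoters.

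**Figure D4:**
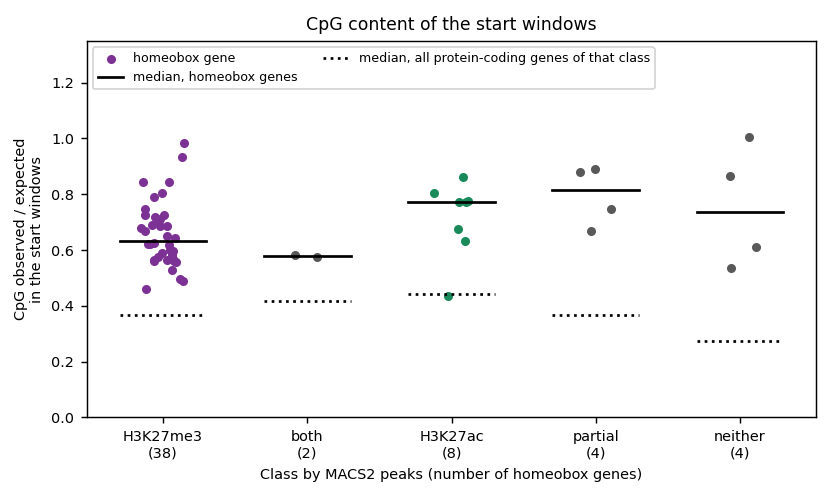
CpG observed over expected in the start windows (linear axis from 0) of each homeobox gene, by class of MACS2 peaks, with the median of the homeobox genes (solid line) and of all protein-coding genes of that class (dotted line). The homeobox medians lie above the dotted line in every class, from 0.58 to 0.81, and MEIS2 is the lowest of the H3K27ac genes at 0.44.

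Over the whole start windows the homeobox genes were rich in CpG whichever mark they carried. The median ratio of observed to expected CpG was 0.67 over the 56 genes, against 0.40 over all protein-coding genes, and the median GC content was 58.6%, against 48.9%. It was 0.63 in the 38 genes called for H3K27me3 alone, with a range of 0.46 to 0.98, and 0.77 in the 8 called for H3K27ac alone, with a range of 0.44 to 0.86, so that the classes overlapped. Over all genes the corresponding medians were 0.37 for H3K27me3 and 0.44 for H3K27ac. The 4 genes with no MACS2 peak of either mark had a median of 0.74, against 0.27 over all such genes. These values are a description of the reference sequence and were not tested.

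The genes called for both marks carried them apart. At LHX3 (chr9:139088096-139096974) H3K27me3 covered 68.9 and 72.6% of the windows by MACS2, while the H3K27ac peaks, found in 4 of 6 libraries, lay 1457 to 1491 bp from the nearest start and overlapped the windows by no more than 44 bp. No base of the LHX3 windows lay under both marks by MACS2, and 750 of 6455 bp did by SEACR, whose wider H3K27ac peaks covered 0 to 35.2% of the windows. LHX6, which acts in cortical interneurons, had 47.3 and 35.4% of its windows under H3K27me3 and 0 to 8.25% under H3K27ac. The H3K27ac peaks lay at an internal start and shared no base with H3K27me3. With the outermost start alone LHX6 was not called for H3K27ac, and with windows of 500 bp LHX3 was not. Bases under both marks by MACS2 were found at DLX1 (335 bp), MSX1 (679 bp) and IRX5 (67 bp), where each H3K27me3 peak came from 1 library.

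The callers classed 7 genes differently. MSX1, a factor of teeth and the palate, had 12.2 and 0% under H3K27me3 and 0 to 10.9% under H3K27ac by MACS2 but 25.7 and 3.8% and 0% by SEACR. IRX1 had 15.9 and 0% and IRX2 0 and 17.9% under H3K27me3 by MACS2, and both were covered in 2 of 2 libraries by SEACR (26.6 and 5.5% at IRX1, 3.4 and 26.7% at IRX2). TLX3, expressed in sensory neurons and activated in T cell leukemia, had no MACS2 peak and a SEACR H3K27me3 peak over 15.5% of its windows in replicate 2 only, whereas its paralog TLX1 had 100 and 100% under H3K27me3 by both callers. LHX6, MEIS1 and NKX3-2, described above, were the other 3.

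The genes with no peak of either mark by either caller differed in their surroundings. The nearest H3K27me3 peak to NKX6-2, an oligodendrocyte factor, lay 6828 and 5220 bp from a start by MACS2 in replicates 1 and 2, and the nearest H3K27ac peak 26330 to 99552 bp away. At PITX3 the libraries differed. The nearest H3K27me3 peak lay 3730 and 166368 bp from its start by MACS2 in replicates 1 and 2, and 166109 and 166301 bp by SEACR. H3K27ac lay 3505 to 3955 bp away by MACS2 except in ab4729 replicate 1, at 88888 bp. By SEACR H3K27ac lay 2954 and 3114 bp away in the ab177178 libraries and 85727 to 105258 bp away in the other libraries. ISL1 stood far from both marks, 415466 and 415522 bp from H3K27me3 and 1413481 to 1413785 bp from H3K27ac by MACS2. Its windows had a CpG ratio of 0.61, those of PITX3 0.54 and those of NKX6-2 1.01, the highest of the 56.

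The difference between the marks was tested for each gene by an exact two-sided permutation test of the mean share of the windows covered, H3K27me3 minus H3K27ac, over the 28 ways to pick 2 of 8 libraries, with Benjamini-Hochberg adjustment over all genes with a peak in any list. The smallest p that this design allows is 0.0357. A gene with a peak in both H3K27me3 libraries and in no H3K27ac library reaches it however little is covered. MEIS1 did so by MACS2 with 1.0 and 4.9% of its windows covered. For such genes the test restates the call and adds no support to it. The share of the windows was higher in both H3K27me3 libraries than in all 6 H3K27ac libraries in 40 of 52 homeobox genes with a MACS2 peak (background 29%) and in 42 of 52 with a SEACR peak (background 29.2%), and lower in 6 by MACS2 (background 51%) and 6 by SEACR (background 45.6%). Each of these genes was at the smallest p, with an adjusted p of 0.0473 by MACS2 and 0.04999 by SEACR, values that pass because most of the 16388 and 15825 genes tested were at that p too. The 6 lower genes were DLX1, OTX1, PITX1, MEIS2, ISL2 and HHEX with both callers. The authors called H3K27ac with narrow and H3K27me3 with broad settings in MACS2 and with different thresholds in SEACR, so that mark and calling setting cannot be told apart in this test. With either H3K27me3 library left out, or with permutation within replicate numbers only, 0 genes passed, since the smallest p was then too large.

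Other homeobox and paired-box genes gave counts of the same order. By MACS2, H3K27me3 was called in 26 of 39 genes of the HOX clusters, 8 of 9 PAX genes and 48 of 78 other homeobox genes, and H3K27ac in 9, 2 and 21. In the HOX clusters the acetylated genes were HOXB2, HOXB3, HOXB4, HOXB6, HOXB7, HOXB9, HOXC4, HOXC6 and HOXC9, of which HOXC4 and HOXC6 were called for H3K27me3 as well. Every HOXA and HOXD gene of the list was called for H3K27me3 and none for H3K27ac. In the PAX family H3K27ac was called at PAX9 and, together with H3K27me3, at PAX8. The other homeobox genes called for H3K27ac were, for the first 10 by alphabet, ADNP, ADNP2, CUX1, HESX1, HMX3, HOMEZ, MNX1, PBX2, PKNOX1 and POU2F1. HOX genes of a cluster can share a domain and are not independent of each other.

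The 30 libraries not used above, each with 1 library per condition, gave a similar division of genes in the SEACR lists. H3K27me3 was found at 39 homeobox genes in the first CST-9733 library (background 25.9%), and at 34 genes with 11 cycles and SDS extraction (background 18.9%), 36 with 11 cycles and columns (25.7%), 35 with 13 cycles and SDS (19.7%) and 34 with 13 cycles and columns (18%). The last 4 lists were downsampled by the authors. In all 5 libraries H3K27me3 was found at 30 of the 56 genes (background 12.3%), and in none at 14 (background 63.3%). Of the 38 genes called for H3K27me3 alone in the benchmark, 29 had it in all 5. H3K27ac was found at none of these 38 genes in any of 21 H3K27ac libraries without TSA by SEACR. MACS2 gave TLX1 a peak in 1 of the first libraries. Shares over all genes called for H3K27me3 alone were not computed, so these counts stand without a background. The 21 SEACR lists covered 3.22 to 43.4 Mb, against 49.4 to 77.6 Mb in the benchmark H3K27ac lists. HHEX had an H3K27ac peak in 17 of those 21 libraries, PITX1 in 16, MEIS2 in 13, DLX1 in 10, ISL2 in 9, OTX1 in 5 and IRX5 in 3, and 45 of the 56 genes had none in any (background 44.9%). The first Active Motif library had H3K27ac at 0 of the 56 genes by MACS2 (background 5.19%) and by SEACR (background 8.63%).

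**Figure D5:**
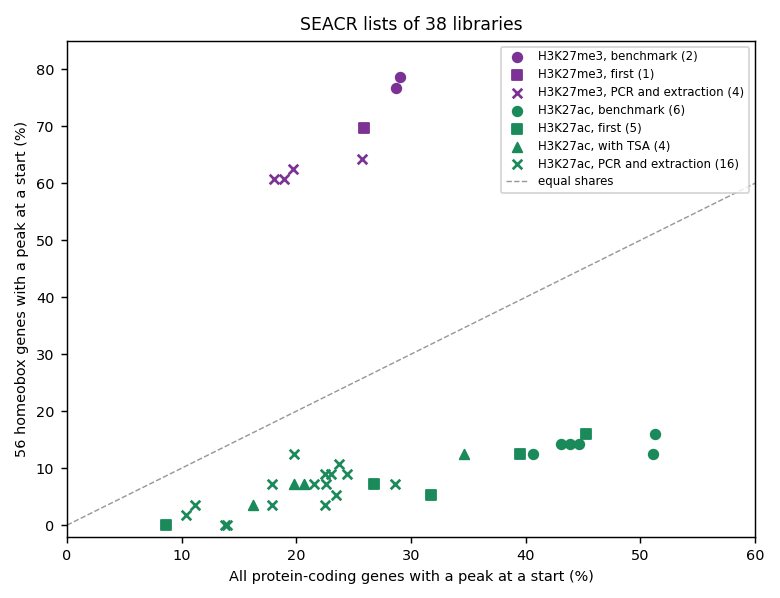
Share of the 56 homeobox genes with a SEACR peak at a start (percent, vertical axis) against the share of all protein-coding genes (percent, horizontal axis) in each of 38 libraries, by mark (color) and set (symbol), with a dashed line of equal shares. The 7 H3K27me3 libraries lie above the line and the 31 H3K27ac libraries below it.

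With TSA the number of homeobox genes with H3K27ac was higher for ab177178 only, and by SEACR only. SEACR found H3K27ac at 4 homeobox genes with TSA and 3 without it for ab177178 (background 19.8 and 31.8%), 7 and 9 for ab4729 (34.6 and 45.2%), 2 and 4 for Diagenode at 1:100 (16.2 and 26.7%) and 4 and 7 for Diagenode at 1:50 (20.7 and 39.5%). MACS2 found H3K27ac at 0 genes with TSA and 3 without it for ab177178 (background 4.5 and 18.8%), 2 and 11 for ab4729 (15.2 and 50.6%), 2 and 4 for Diagenode at 1:100 (21.6 and 21.4%) and 4 and 8 for Diagenode at 1:50 (13.2 and 42.6%). The lists with TSA were downsampled by the authors, whereas the lists without TSA were at full depth, so that TSA and depth cannot be told apart here. PITX1 had a SEACR peak in 4 of 4 libraries with TSA and 4 of 4 without, and HHEX and MEIS2 in 3 of 4 with TSA and 4 of 4 without. Of the 38 genes called for H3K27me3 alone, MEIS1 and TLX1 each had a SEACR H3K27ac peak in 1 of 4 libraries with TSA and in none of 4 without. By MACS2, TLX1 had one in 1 of 4 libraries without TSA and MEIS1 in none.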

How the data were processed

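CUT&Tag peaks of H3K27me3 and H3K27ac in K562 were taken as deposited, in 56 lists of 38 libraries. Per the study's methods and the submitters' notes, the authors trimmed reads (Trim Galore 0.6.6), aligned them to hg19 (Bowtie2 2.2.9) and removed duplicates (Picard 2.6.0). The authors called each library alone, with MACS2 (narrow for H3K27ac, broad for H3K27me3) and SEACR (different thresholds for the marks). The deposited MACS2 lists give a score, a fold over the genome background (ratio) and −log10 p and q, as written by the authors' caller. The deposited SEACR lists give signal, the coverage summed over a peak and its maximum, which the authors did not scale to library size. The SEACR stringency is not the same in all sources used here. Blacklisted regions were not removed. The lists hold no read depth.

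Genes and starts came from GENCODE lifted to GRCh37 (20136 protein-coding genes, 27 duplicate symbols dropped). Coverage, distances and exact permutation tests were computed with numpy 2.4.6, pandas 2.3.3 and scipy 1.17.1, tested on simulated data and checked against bedtools 2.31.1, and plotted with matplotlib 3.10.9. All 56 genes are accounted for; values per replicate are given for H3K27me3, and the range over the 6 libraries for H3K27ac, and comparison lists are named by alphabet. Members and lists were chosen with earlier results of these data known. Alternatives were other windows, starts, overlaps, thresholds, library counts, a replicate block and each library left out. The result for 1 blood cell marker is not reported here.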

Additional observations from a re-analysis of the deposited data

Results flagged for a closer look

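Of 20 sets of 6 H3K27ac values checked for a library far from the other 5, 3 held one. The limit used is nominally passed by chance in about 1 in 20 sets. At NKX3-2, ab4729 replicate 1 had 0% of the start windows under MACS2 peaks, below the other H3K27ac libraries. At ISL2, Diagenode replicate 2 had 99.2% under MACS2 peaks, above the others. Also at ISL2, ab177178 replicate 1 had 90.2% under SEACR peaks, below the others, which were at 100%. That nominal rate does not apply to this last set, in which the other 5 values are tied.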

How the results depend on the processing

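Of 170 alternative values, 142 stayed close to the reported ones and 28 moved, 7 of these on leaving out a library. With MACS2 −log10 q of at least 10, H3K27me3 was called in 19 genes, both marks in 1 and neither in 22, the median gene had 0% of its length under H3K27me3, and 19 genes passed the mark test. With a peak required in every library, H3K27ac was called in 6 genes by MACS2 and both marks in 0 by either caller. With a peak in at least 1 library, both marks were called in 5 by MACS2 and 3 by SEACR. With 500 bp windows, both marks were called in 1 and 0 and neither in 8 and 9 (MACS2 and SEACR). With the outermost start only, or with at least 200 bp covered, MACS2 called both marks in 1. With the upper 50% of SEACR signal, both marks were called in 0 and neither in 9, and the median gene had 61.4% covered. The cause of these shifts was not tested.

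Leaving out each library in turn gave, for MACS2 and SEACR, 2 to 4 and 1 to 2 genes with both marks (4 and 2 without CST-9733 replicate 2), a median of 62.0 to 68.6% and 63.9 to 70.4% of the gene under H3K27me3, and 0 to 40 and 0 to 42 genes past the mark test. The 0 arises without either CST-9733 replicate, as only 7 ways then remain. With a replicate block, 0 genes passed by either caller, since its 16 ways allow no p below 0.0625. The replicate numbers did not pair the libraries: correlations of deviations ran from -0.0325 to 0.057, other than 0.419 for ab4729 with Diagenode by MACS2.

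Peak lists without depth cannot separate an absent mark from a missed one.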
